A study of Mus musculus with 8 samples.

Results

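Genes of the cornified envelope were examined in the dorsal skin of hairless Hos:HR-1 mice, all female and aged 21 weeks, after 12 weeks on 1 of 2 diets. The control mice ate AIN-93G, a purified rodent diet, and the collagen mice ate AIN-93G to which collagen hydrolysate from fish scales (a peptide digest of collagen) was added at 2 g per 100 g. Mice shared cages in groups of 4, and the cage of each array is not given in the labels. Of 16 mice, 8 on each diet from 9 weeks of age, the 8 arrays cover 4 samples per diet, called biological replicates in their titles. The genes were chosen by name: all with a symbol that starts with Sprr or Lce, and 20 further named genes of the envelope, each represented by its probe set (the group of probes that reports a gene) with the highest mean over the 8 arrays. This gave 43 of the 18193 genes with a probe set of 1 symbol, of which 39 lay above the lowest 30% by mean level and were tested among 12735 genes. *Sprr2f*, *Sprr2i*, *Sprr3* and the pseudogene *Sprr2j-ps* lay below that filter. *Flg2* was named but matched 0 probe sets, and 3 probe sets that list several *Sprr2a* genes together were left out.

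The cornified envelope replaces the plasma membrane of dying keratinocytes at the skin surface. Involucrin is laid down first, loricrin and small proline-rich (SPRR) and late cornified envelope (LCE) proteins are added, and transglutaminases crosslink them into an insoluble shell. Filaggrin bundles keratin filaments inside that shell and is then broken down to moisturising amino acids. Most of these genes lie side by side in a cluster called the epidermal differentiation complex, and SPRR and some LCE genes are known for rising in stressed or wounded skin. Whole skin was used, so a lower value can come from fewer granular keratinocytes or from less RNA in each, and these cannot be told apart.

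Sequences just before the transcription starts are shown because the 2 large families, which are neighbours in the genome, differ in them. A further reason is that the LCE genes varied together over the arrays, the SPRR genes less closely. RefSeq windows (build GRCm38.p6) were found for 39 of the 43 genes, 1 window per gene, and not for *Calml3*, *Crct1*, *Lce1f* and *Sprr2j-ps*. The 200 bases before the start are given 5′ to 3′ along the gene, with 3 motifs in capitals: TATANA (the core promoter box that places the start), TGANTCA (the site of AP-1, the Jun and Fos factors, read on both strands) and TAAAAG, which was chosen after the sequences were seen and read on the gene's strand.
*Lce1a1* (chr3:92648308-92648507, minus strand): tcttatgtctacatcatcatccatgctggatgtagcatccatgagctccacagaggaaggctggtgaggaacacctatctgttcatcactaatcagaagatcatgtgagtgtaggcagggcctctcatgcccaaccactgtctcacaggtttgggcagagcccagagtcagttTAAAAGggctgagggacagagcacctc
*Lce1a2* (chr3:92670316-92670515, minus strand): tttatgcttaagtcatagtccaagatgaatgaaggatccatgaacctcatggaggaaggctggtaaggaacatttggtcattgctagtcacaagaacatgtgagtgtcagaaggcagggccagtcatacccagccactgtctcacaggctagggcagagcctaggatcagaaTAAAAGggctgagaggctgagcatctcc
*Lce1i* (chr3:92778900-92779099, minus strand): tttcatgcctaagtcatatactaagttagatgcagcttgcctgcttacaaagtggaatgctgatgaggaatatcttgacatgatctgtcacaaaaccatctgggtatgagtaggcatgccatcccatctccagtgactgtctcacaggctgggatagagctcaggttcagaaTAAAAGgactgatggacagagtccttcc
*Lce3b* (chr3:92932779-92932978, plus strand): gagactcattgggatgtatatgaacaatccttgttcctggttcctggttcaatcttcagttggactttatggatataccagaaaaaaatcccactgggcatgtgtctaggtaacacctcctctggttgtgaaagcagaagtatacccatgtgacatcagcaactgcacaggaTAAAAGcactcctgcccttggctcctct
*Sprr1a* (chr3:92485882-92486081, minus strand): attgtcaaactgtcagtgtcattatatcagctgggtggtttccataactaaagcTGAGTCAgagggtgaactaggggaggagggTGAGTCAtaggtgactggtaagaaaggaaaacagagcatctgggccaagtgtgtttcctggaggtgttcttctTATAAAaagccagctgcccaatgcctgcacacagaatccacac
*Sprr2d* (chr3:92338940-92339139, plus strand): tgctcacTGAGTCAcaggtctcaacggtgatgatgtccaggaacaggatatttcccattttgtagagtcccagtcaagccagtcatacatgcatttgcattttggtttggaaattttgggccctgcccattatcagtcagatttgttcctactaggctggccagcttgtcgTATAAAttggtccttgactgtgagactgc
*Sprr2h* (chr3:92385485-92385684, plus strand): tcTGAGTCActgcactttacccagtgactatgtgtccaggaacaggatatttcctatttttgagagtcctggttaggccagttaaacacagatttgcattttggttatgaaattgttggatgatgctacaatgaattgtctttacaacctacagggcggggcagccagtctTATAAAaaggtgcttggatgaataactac
*Lor* (chr3:92083143-92083342, minus strand): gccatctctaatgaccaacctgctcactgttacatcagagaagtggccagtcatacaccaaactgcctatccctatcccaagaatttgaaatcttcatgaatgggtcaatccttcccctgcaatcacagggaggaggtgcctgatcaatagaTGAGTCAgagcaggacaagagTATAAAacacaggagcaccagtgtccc

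In the 250 bases before the start, TGANTCA was present in 7 of 8 SPRR windows and in 0 of 14 LCE windows. It was also in 8 of 17 windows of the other members, against 6.87% of 27025 windows of all genes. TATANA on the gene's strand was present in 8 of 8 SPRR, 2 of 14 LCE and 9 of 17 other members' windows, against 17.3% of all windows. Conversely, TAAAAG was present in 12 of 14 LCE, 0 of 8 SPRR and 2 of 17 other members' windows, against 7.98% of all. In *Lce1a1*, *Lce1a2*, *Lce1i* and *Lce3b* it starts 27 or 28 bases before the start, near the place where *Sprr2d* and *Sprr2h* have TATAAA, at 29 bases before it. TAAAAG can overlap TATANA where a TATA box is followed by A and G. Of the other motifs searched on both strands, CACCC (bound by KLF factors) was present in 48.7% of the members' windows and 51.3% of all. TTGCNNAA (C/EBP) was present in 20.5% and 9.55%, TGACNNNGC (the antioxidant response element) in 12.8% and 10.1%, and AACNGGTT (grainyhead-like factors) in 2.56% and 1.71%. These are letter matches and say nothing of binding.

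The upstream 250 bases of *Lce1* genes shared between 47.7% and 85.6% of aligned positions over 45 pairs, with a median of 63.5%. The closest pair was *Lce1g* and *Lce1i* at 85.6%, followed by *Lce1g* and *Lce1h* at 84.5%. *Sprr2* windows shared a median of 65.7% over 10 pairs and *Lce3* windows 54.3% over 6. The families are close relatives in their transcripts too. Probe sets whose name ends in _x_at or _s_at hold probes that also match other sequences or several transcripts, and these represent 7 of the 15 LCE genes and 1 of the 5 SPRR genes tested, as well as *Lor*. Single LCE and *Sprr2* genes are therefore uncertain, since signal can be shared between copies.

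No envelope gene passed the test of the diets across all genes. By limma's moderated test, with p adjusted over all 12735 genes, 0 of 39 envelope genes had an adjusted p below 0.05, and over all genes 0% (0 of 12735) did. At an unadjusted p below 0.05 stood 1 envelope gene, *Lce3b*, which is 2.56% against 5.36% of all genes. It was higher on the collagen diet, as were 1.21% of all genes at that p, while 0 envelope genes and 4.15% of all genes were lower. A model without variance moderation also called 0 envelope genes. The arrays of the 2 diets overlapped in every one of the 39 genes tested, where 3.31% of all genes had groups that did not overlap. The deposited log2 values differed very little between arrays, with a median SD of 8.66e-06 over all probe sets, and how they were made is not stated. A difference on this scale is therefore no fold change of RNA, and differences, collagen minus control diet, are divided by the SD within groups, pooled over both diets, of the gene concerned. In these units each difference of 4 against 4 arrays has an SE of 0.71 and a 95% interval that reaches 1.73 to either side.

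The direction was mostly upward without any gene passing: 31 of the 39 were higher on the collagen diet (79.5%), against 45.5% of all genes tested, with a median difference of 0.31 SD against -0.08 SD. The LCE family accounted for 15 of the 31, with 15 of 15 genes higher and a median of 0.71 SD. The other 24 genes were split 16 higher and 8 lower. A direction shared by a whole list was also seen outside the LCE family. Markers of spinous and granular keratinocytes were higher in 8 of 8 cases (median 0.41 SD) and those of skeletal muscle in 10 of 10 (0.19 SD). Of the 7 basal keratinocyte markers, 4 were higher. The 15 LCE genes are not 15 independent observations, because they varied together from array to array. Without control replicate 3, the array lowest in these genes, 21 of 39 envelope genes and 11 of 15 LCE genes were higher, and the medians were 0.02 and 0.30 SD. Without control replicate 4 and collagen replicate 1, which were low in skeletal muscle genes, 20 of 39 and 11 of 15 were higher. Without control replicate 1, an array high in these genes, 34 of 39 and 15 of 15 were higher, and the medians were 0.76 and 1.04 SD. In each of the 39 genes, leaving out 1 array or another turned the difference or moved it by over 1.5 times. Centring each array on its median left 23 of 39 and 13 of 15 higher while 13.5% of all genes were higher. Quantile normalization made all 8 arrays equal in 12 of the 39 genes, 3 of them LCE, which then have no direction. Of the other 27 genes 18 were higher, with 10 of 12 LCE genes, while 32.8% of all genes that still varied were higher. Among the 27, *Lce1a1* was still equal in 7 of 8 arrays, so its direction came from 1 array. With genes equal in 7 arrays also left out, 17 of 26 envelope and 9 of 11 LCE genes were higher, against 3992 of 12208 genes. *Lce1g*, *Lce1h* and *Sprr2h* stood at 0.01, 0.00 and 0.01 SD.

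**Figure D1:**
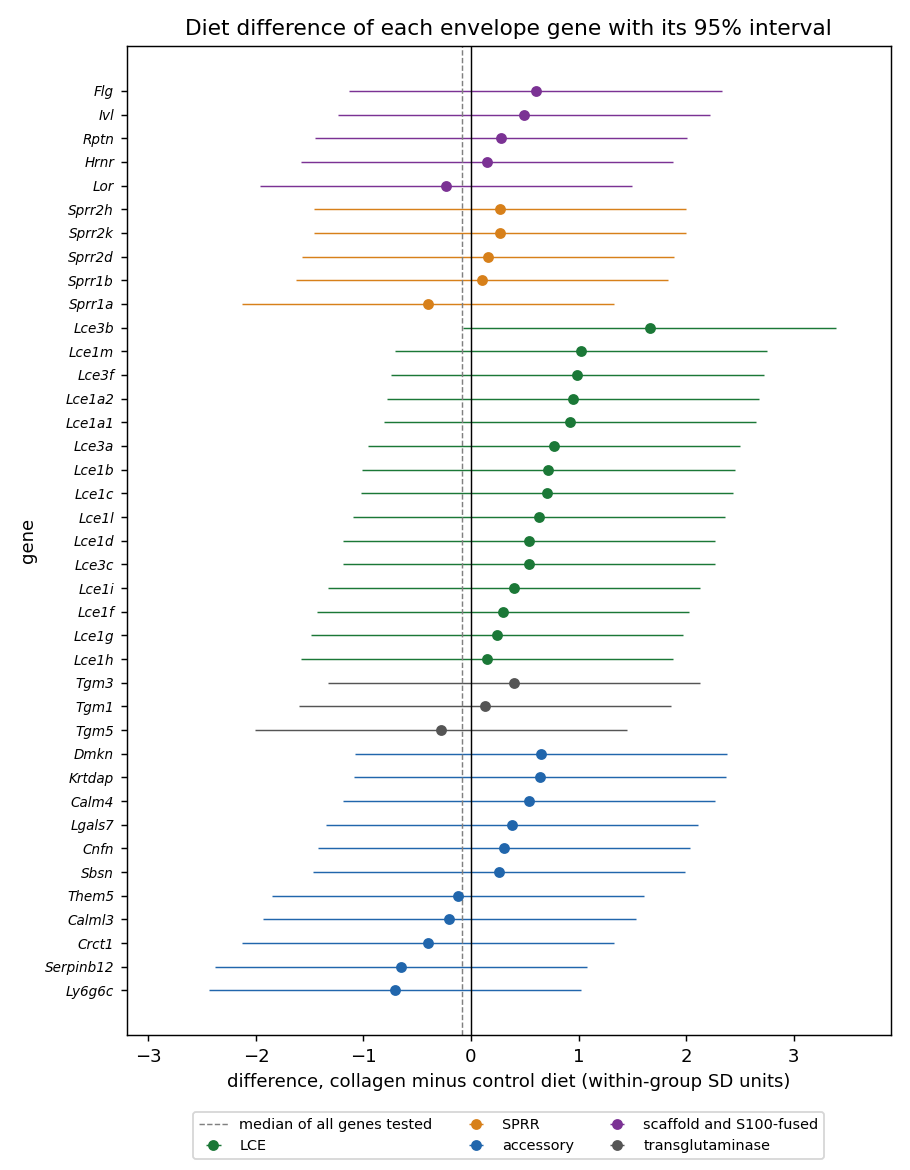
Difference of each of the 39 envelope genes, collagen minus control diet, in within-group SD units on the horizontal axis, with bars for the 95% interval of 4 against 4 arrays from the gene's own SD and colours for the role. All 15 LCE genes lie to the right of 0, from 0.15 to 1.66, and every interval includes 0; without control replicate 3 there were 11, after median centring 13, and after quantile normalization 10 of 12.

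The values in each array are given as deviations from the mean of the 8 arrays for that gene, in the same SD units. Loricrin, *Lor* (1448745_s_at), the glycine-rich bulk protein of the envelope, stood at 0.40, 0.89, -0.96 and 0.13 in control replicates 1 to 4 and -0.16, -1.29, 1.5 and -0.51 in collagen replicates 1 to 4. The highest and the lowest array were both of the collagen diet, and the difference was -0.23 SD with an adjusted p of 0.999 in limma. The 2 other *Lor* probe sets pointed in opposite directions, 1420183_at at 0.77 SD and 1420184_at at -1.30 SD, and their r with the first was 0.35 and 0.40 over 8 arrays. Of the 3, 1420184_at lay near the filter, at a mean level of 6.94 where the filter for genes was at 6.68. The other 2 lay well above it, at 13.52 and 12.89, and differed in sign from each other. The 3 probe sets thus give no common direction for loricrin. Its direction turned without control replicate 2 (0.03 SD) and without collagen replicate 2 (0.18 SD).

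Filaggrin, *Flg* (1427268_at), stood at 1.32, -0.25, -1.14 and -1.13 on the control diet and 1.00, 0.84, 0.14 and -0.79 on the collagen diet. Its groups overlapped across most of their range, with control replicate 1 the highest of all 8, and the difference was 0.60 SD. It was 1.60 SD without control replicate 1 and 0.32 SD without control replicate 3 or 4. Involucrin, *Ivl* (1439878_at), the early scaffold, stood at -0.40, 0.51, -0.99 and -0.11 on the control diet and 2.10, -0.54, 0.02 and -0.59 on the collagen diet. The upward difference of 0.49 SD came with 1 high array, collagen replicate 1, and without that array it was -0.24 SD. The second *Ivl* probe set gave the same picture, at 0.50 SD and an r of 0.97 with the first. Repetin (*Rptn*) and hornerin (*Hrnr*), filaggrin relatives with an S100 calcium-binding domain, differed by 0.28 and 0.15 SD. None of the 5 scaffold and S100-fused genes tested passed, with adjusted p of 0.999 in limma for each.

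Transcripts of SPRR proteins, short proline-rich crosslinkers of the envelope, had a median difference of 0.16 SD over 5 genes tested, 4 of them higher and 1 lower, and 0 passed. *Sprr1a* (1449133_at) stood at 0.19, 0.38, -0.75 and 0.97 on the control diet and 0.95, 0.38, -1.87 and -0.25 on the collagen diet. It was lowest in collagen replicate 3, and the difference of -0.40 SD became 0.24 SD without that array. *Sprr2h* (1422240_s_at) stood at 1.64, -0.41, -0.76 and -1.01 on the control diet and 0.21, 0.59, -0.92 and 0.66 on the collagen diet. Its highest array was control replicate 1, and the groups were interleaved, with a difference of 0.27 SD. *Sprr2k*, *Sprr2d* and *Sprr1b* differed by 0.27, 0.16 and 0.10 SD. Among the 4 SPRR genes below the filter, tested only with no filter, the differences were 0.58 SD (*Sprr2f*), 0.57 SD (*Sprr2i*), 0.51 SD (*Sprr3*) and 1.54 SD (*Sprr2j-ps*), with an adjusted p of 1.00 each in limma.

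Transcripts of LCE proteins, small cysteine-rich proteins added late to the envelope, were all higher on the collagen diet without passing. *Lce3b* (1429641_x_at), the envelope gene with the smallest p, stood at 0.57, -0.92, -1.85 and -1.13 on the control diet and 0.68, 1.80, -0.47 and 1.32 on the collagen diet. Collagen replicates 2 and 4 were the highest and control replicates 3, 4 and 2 the lowest, while control replicate 1 lay above collagen replicate 3. The difference was 1.66 SD, or 5.23e-05 ± 2.22e-05 (SE, n = 4 per diet) on the deposited log2 scale. Its adjusted p in limma was 0.930, and p was 0.0571 in an exact two-sided permutation test, whose smallest possible p is 0.0286. The difference was 0.19 SD after median centring and -0.28 SD after quantile normalization. With 1 array left out it lay between 1.37 SD (without collagen replicate 2) and 2.59 SD (without control replicate 1).

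*Lce3f* (1456248_at) stood at 1.05, -0.81, -0.62 and -1.58 on the control diet and 0.90, 0.81, -0.82 and 1.08 on the collagen diet, and *Lce3a* (1456001_at) at 1.25, -0.07, -0.84 and -1.89 on the control diet and 0.31, 0.40, -0.20 and 1.03 on the collagen diet. Both had control replicate 1 among the high arrays, at 1.05 and 1.25 SD, and control replicate 4 as the lowest, with differences of 0.99 and 0.77 SD. Without control replicate 1 these were 1.99 and 1.89 SD, and without control replicate 4 they were 0.66 and 0.35 SD. *Lce3c* differed by 0.54 SD. The 4 *Lce3* genes had a median of 0.88 SD and the 11 *Lce1* genes one of 0.63 SD, and their difference was not tested.

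Among *Lce1* genes, *Lce1m* (1429565_s_at) stood at -0.59, 0.71, -1.63 and -0.54 on the control diet and 1.91, 0.68, -0.12 and -0.42 on the collagen diet. *Lce1a2* (1420350_at) stood at 0.72, -0.62, -1.88 and -0.13 on the control diet and 1.83, 0.12, 0.07 and -0.10 on the collagen diet. *Lce1a1* (1420677_x_at), whose upstream sequence is printed above beside that of *Lce1a2*, stood at 0.59, 0.16, -1.88 and -0.71 on the control diet and 1.65, 0.64, -0.37 and -0.08 on the collagen diet. In these 3 genes the same pair of arrays formed the ends, with collagen replicate 1 highest and control replicate 3 lowest, and the 6 arrays between them were mixed. The differences were 1.02, 0.95 and 0.92 SD. Without control replicate 3 they were 0.70, 0.59 and 0.55 SD. A second *Lce1a1* probe set, 1420676_at, gave 0.06 SD. *Lce1b* (1419409_at) stood at 0.41, 0.12, -1.97 and 0.00 on the control diet and 1.46, 0.60, -0.69 and 0.07 on the collagen diet. *Lce1c* (1453218_at) stood at 0.53, -0.03, -1.20 and -0.72 on the control diet and 2.09, 0.18, -0.56 and -0.28 on the collagen diet. Both again had collagen replicate 1 highest and control replicate 3 lowest, with differences of 0.72 and 0.71 SD. The other *Lce1* genes were *Lce1l* at 0.63, *Lce1d* at 0.54, *Lce1i* at 0.40, *Lce1f* at 0.30, *Lce1g* at 0.24 and *Lce1h* at 0.15 SD. Without control replicate 3 the last 4 of these turned to -0.16, -0.27, -0.08 and -0.48 SD.

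Of the transglutaminases, the enzymes that crosslink the envelope, *Tgm1* differed by 0.13 SD, *Tgm3* by 0.40 SD and *Tgm5* by -0.28 SD. *Tgm3* (1440150_at) stood at 0.31, 0.73, -0.57 and -1.28 on the control diet and -1.38, 1.10, 0.67 and 0.41 on the collagen diet. It was lowest in collagen replicate 1, the array in which most LCE genes were highest. *Tgm1* was set apart by a low control replicate 3, at -1.51 SD, and without that array its difference was -0.44 SD, and without collagen replicate 1 it was -0.49 SD. The transglutaminases therefore showed no common direction.

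Of the 11 accessory genes 6 lay above 0 and 5 below, and the median was 0.26 SD. *Ly6g6c* (1422749_at), which encodes a membrane-anchored protein of the Ly6 family, stood at 0.19, -0.02, -0.38 and 1.63 on the control diet and 0.72, 0.24, -1.81 and -0.57 on the collagen diet. The highest array was control replicate 4 and the lowest collagen replicate 3, with a difference of -0.71 SD, and its 2 other probe sets gave -0.69 and -0.66 SD. *Serpinb12*, a protease inhibitor, differed by -0.65 SD, *Crct1* by -0.40 SD, *Calml3*, a calmodulin-like protein, by -0.20 SD and *Them5*, an acyl-CoA thioesterase, by -0.12 SD. On the higher side, *Dmkn* (dermokine), *Krtdap* and *Sbsn* (suprabasin), secreted proteins encoded next to each other, differed by 0.65, 0.64 and 0.26 SD. *Calm4*, a calcium-binding protein of the upper epidermis, differed by 0.54 SD (2.04 SD without control replicate 1 and 0.12 SD without control replicate 3), *Lgals7* (galectin 7) by 0.38 SD and *Cnfn* (cornifelin) by 0.31 SD. Over all roles, 15 further probe sets report 10 of the genes, and of 13 that could be tested 12 pointed the same way as the one used. This counts the sign alone, also for values near 0 such as 0.06 SD (*Lce1a1*) and -0.03 SD (*Them5*). The median r of the 15 with the one used was 0.63, and it was 0.01 for 1 of *Rptn*.

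**Figure D2:**
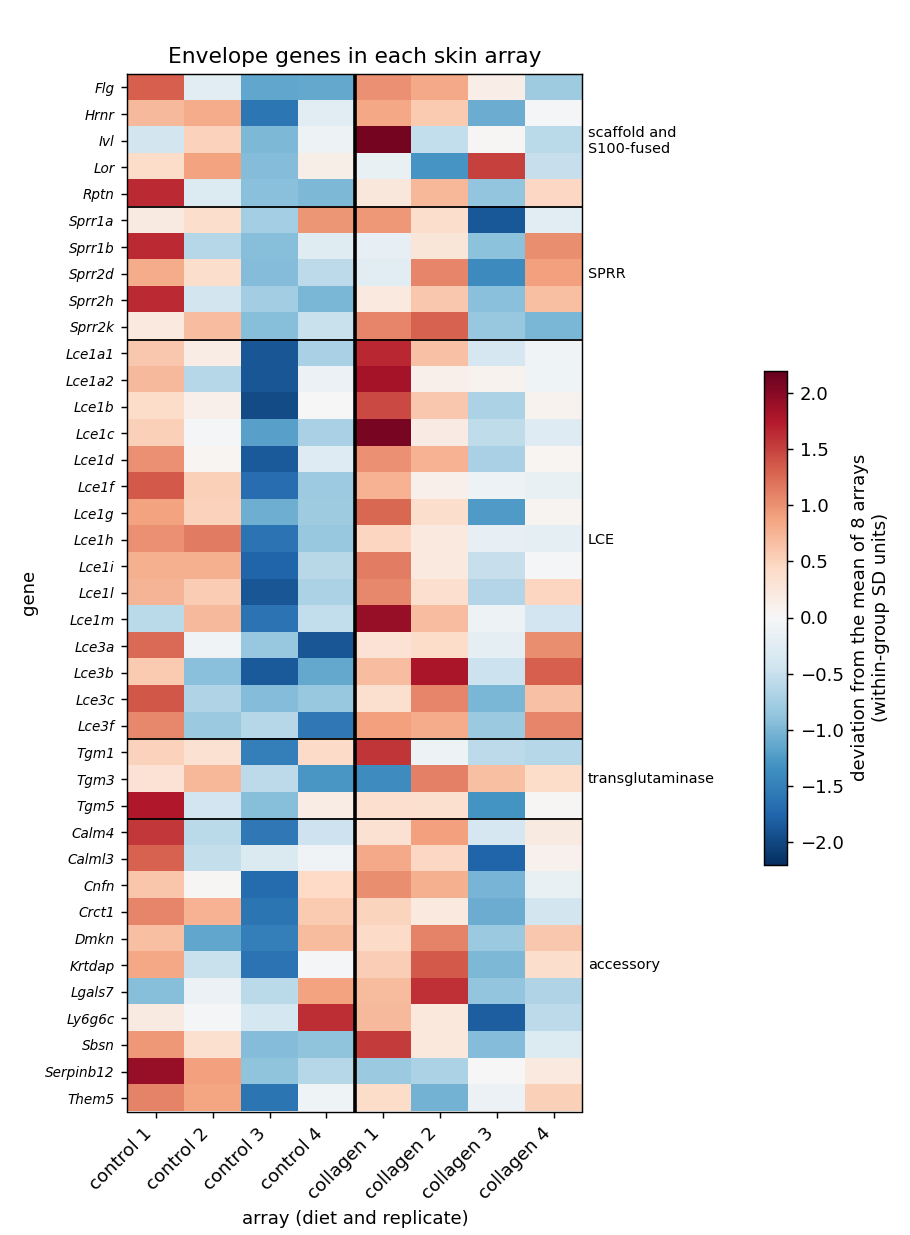
Deviation of each of the 39 envelope genes (rows, grouped by role) from its mean over 8 arrays, in within-group SD units shown as colour, with the 4 control-diet arrays on the left of the thick line and the 4 collagen-diet arrays on the right. Control replicate 3 is below the mean in all 39 genes and collagen replicate 3 in 34, while control replicate 1 is below it in 3 and collagen replicates 1 and 2 in 5 each.

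Averaged over the 39 genes, the spread between arrays of a diet was larger than the difference between the diets. Control replicate 3 was the lowest of the 8 arrays in 24 of 39 envelope genes (61.5%), against 8.13% of all genes tested, and in 11 of 15 LCE genes. Control replicate 1 was the highest in 13 and collagen replicate 1 in 14, of which 9 were LCE genes, while 9.86% and 14.9% of all genes had these arrays highest. The mean deviation over all 39 genes was -1.24 SD in control replicate 3 and -0.64 SD in collagen replicate 3, against 0.81 and 0.76 SD in control replicate 1 and collagen replicate 1. The diet means were -0.17 ± 0.86 SD for control and 0.17 ± 0.61 SD for collagen (mean ± SD, n = 4 each). Each diet thus held an array high and an array low in the envelope genes.

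Envelope genes varied together over the 8 arrays. The median Pearson r over 741 pairs of the 39 genes was 0.59, and 92.2% of pairs were above 0, against a median of 0.01 and 51.1% over all pairs of genes tested. With each diet's mean removed the median was 0.63, so the shared variation was present within diets. *Lce1* genes had a median r of 0.87 over 55 pairs and *Lce3* genes 0.86 over 6, and the part of shared probe signal in this was not tested. SPRR genes had a median r of 0.49 over 10 pairs, below the 0.59 over all pairs of the 39 genes. The highest r that joined different families was 0.99, between *Rptn* and *Sprr2h*, and *Lce3c* had an r of 0.97 with *Rptn* and of 0.96 with *Sprr2h*. A second *Rptn* probe set had an r of 0.01 with the first, but its mean level of 6.68 was at the filter level. These values therefore rest on 1 *Rptn* probe set. *Hrnr* followed the LCE genes with a median r of 0.84, and *Sbsn*, which lies outside the cluster, with one of 0.81. Loricrin stood apart, with a median r of -0.05 with the other 38 genes, as did *Tgm3* at 0.11. These too rest on 1 probe set each, since the others had an r of 0.35 and 0.40 (*Lor*) and 0.11 (*Tgm3*) with the one used. Of those others, the *Lor* one with an r of 0.40 and the *Tgm3* one had low mean levels, 6.94 and 6.83. These coefficients describe 8 arrays that share their processing, and no test was made of them.

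**Figure D3:**
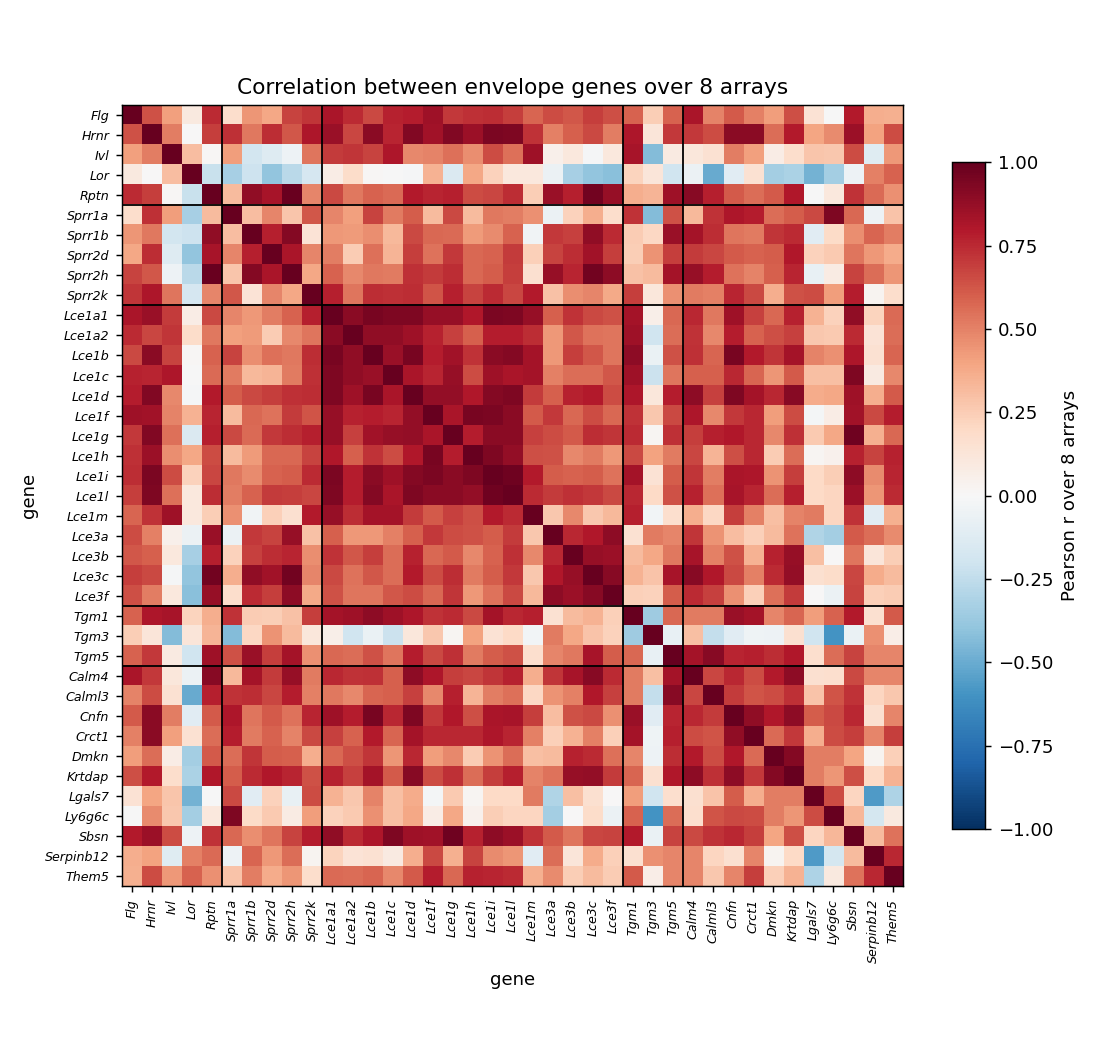
Pearson r over 8 arrays between each pair of the 39 envelope genes, in the same order on both axes, grouped by role and separated by black lines. All 105 pairs within the LCE block are above 0, with a median of 0.75, and the rows of *Lor* and *Tgm3* are the pale and blue ones, with medians of -0.05 and 0.11.

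By gene order in RefSeq, 29 of the 43 genes lie in 1 run of 49 protein-coding genes from *Lor* to *Rptn*, the epidermal differentiation complex. Elsewhere lie 13, and the pseudogene *Sprr2j-ps* was not placed, since only protein-coding genes were ordered. Of the 26 tested genes in the run 23 were higher on the collagen diet, with a median of 0.45 SD, and of the 13 elsewhere 8 were higher, with a median of 0.26 SD. The median r was 0.66 among the genes of the run, 0.75 between next neighbours in it (25 pairs), 0.49 among the genes elsewhere and 0.55 between genes of the run and genes elsewhere. Covariation was thus present across distant loci as well as between neighbours.

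The envelope genes were also among the more variable genes of these arrays. Of the 39 genes, 14 (35.9%) were among the 5% of genes with the largest SD over the 8 arrays on the deposited scale, 4 of them SPRR and 6 LCE genes. So were 10 of 10 skeletal muscle markers, 6 of 7 inner root sheath markers, 4 of 6 wound-state keratinocyte markers and 6 of the 24 other cornification genes described next. *Rptn* had an SD of 1.07e-02 and was the 1 envelope gene in the top 1%. At the other end, *Lgals7* had an SD of 3.33e-07. The within-group SD used as the unit therefore differs greatly between genes, and a difference of equal size in SD units is not an equal difference on the deposited scale.

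Other genes of cornification did not pass either. Of 24 tested genes of other envelope proteins, suprabasal keratins and surface proteases, 15 lay above 0 and 9 below, the median was 0.14 SD, and 0 had an adjusted p below 0.05. Those with the smallest p were *Krt77* at 1.64 SD, *S100a14* at -1.56 SD, *Ppl* (periplakin, an early scaffold) at 1.23 SD, *Dsg1a* (a desmosomal cadherin) at 1.07 SD and *Anxa1* at 1.02 SD. Of 26 tested regulators of envelope genes 8 lay above 0 and 18 below, the median was -0.28 SD and 0 passed. They were led by *Satb1*, a chromatin organiser of the cluster, at 1.51 SD, *Jun*, a subunit of AP-1, at -1.42 SD, *Gata3* at 1.23 SD, *Keap1*, the inhibitor of NRF2, at -1.15 SD and *Vdr*, the vitamin D receptor, at 1.00 SD. *Jun*, singled out after its values were seen, was highest in control replicates 3 and 4, at 2.19 and 1.51 SD, while the other 6 arrays lay between -1.26 and -0.22 SD.

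Markers of the skin's cell types lay above the filter in nearly every case. The counts were 7 of 7 for basal keratinocytes, 8 of 8 for spinous and granular keratinocytes, 6 of 6 for fibroblasts and 10 of 10 for skeletal muscle. The filter is a cut by rank of mean level and does not show detection. Over replicates 1 and 3 of each diet, the spinous and granular markers moved with the envelope genes and the fibroblast markers against them. The 8 spinous and granular markers stood at -1.12 SD in control replicate 3 and -0.37 SD in collagen replicate 3, against 0.51 and 1.06 SD in control replicate 1 and collagen replicate 1. The 6 fibroblast markers stood at 0.84 and 1.46 SD in control replicate 3 and collagen replicate 3 and at -0.79 and -0.77 SD in control replicate 1 and collagen replicate 1. This contrast did not hold in every array. In control replicate 4 the fibroblast markers stood at -0.26 SD and the envelope genes at -0.36 SD, and in collagen replicate 4 at 0.05 and 0.08 SD. The 7 basal markers lay between -0.58 and 0.63 SD over all arrays. The 10 skeletal muscle markers were low in control replicate 4 (-1.36 SD) and collagen replicate 1 (-1.35 SD) and lay between 0.22 and 0.89 SD in the other 6. The 7 inner root sheath markers were all higher on the collagen diet, with a median of 1.97 SD, as were the 8 hair shaft markers tested, with a median of 1.22 SD. The 6 wound-state keratinocyte markers stood lowest in collagen replicate 3, at -1.53 SD, where the SPRR genes were also lowest, at -1.19 SD. The wound-state markers were highest in control replicate 4 (0.82 SD), where the SPRR genes stood at -0.27 SD. The SPRR genes were highest in control replicate 1 (0.90 SD), where the wound-state markers stood at -0.09 SD. Of the 5 proliferation markers 0 were higher, with a median of -3.38 SD. The 8 spinous and granular markers, which include *Krt77* and *Dsg1a*, are also among the 24 other cornification genes above. The part of these cell types in the envelope values was not tested.

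**Figure D4:**
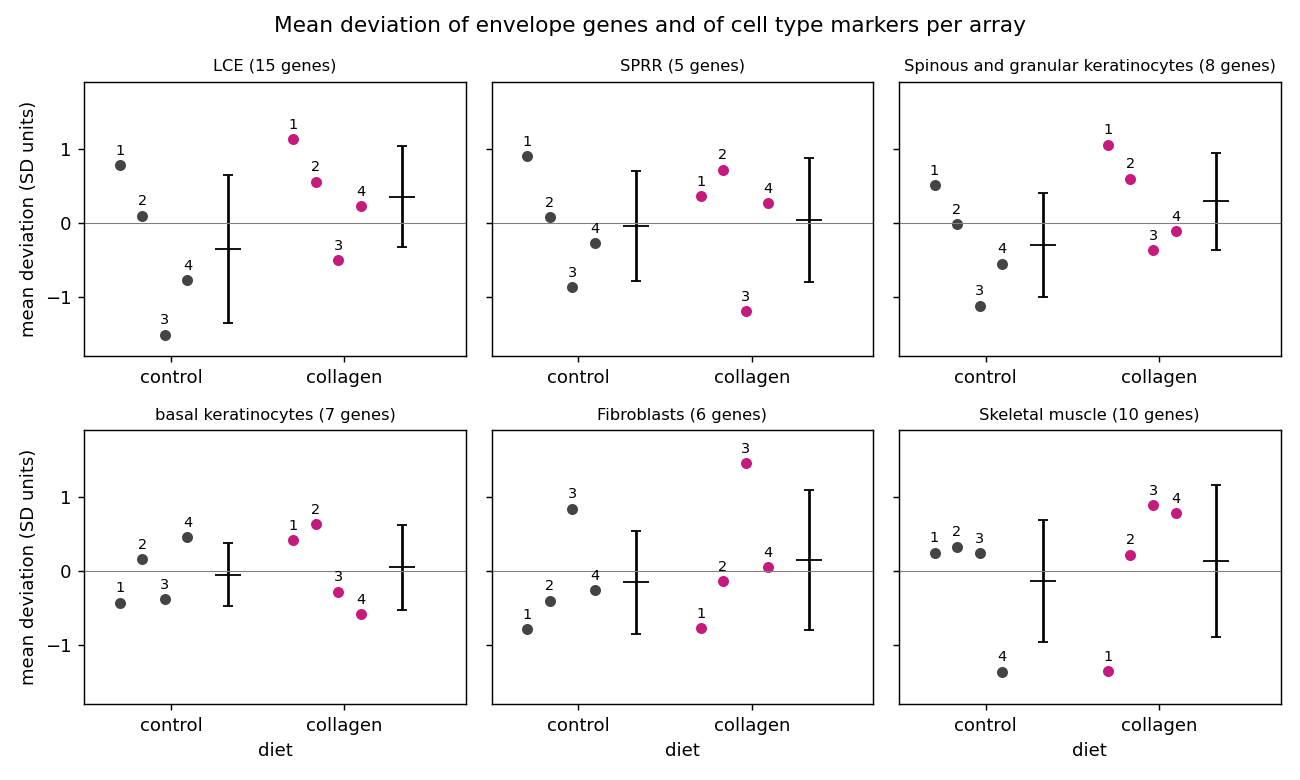
Mean deviation of the LCE and SPRR genes and of 4 marker lists in each array, in within-group SD units on the vertical axis, with points numbered by replicate and bars for the mean ± SD of each diet (n = 4). Replicate 3 of each diet is low in LCE, SPRR and spinous and granular genes and high in fibroblast markers. Control replicate 4 is also low in LCE (-0.77 SD) and in spinous and granular genes (-0.55 SD). The diets overlap in all 6 panels.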

How the data were processed

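Per the labels' protocols, frozen dorsal skin was powdered, and 200 ng of total RNA was labelled with a 3′ kit and hybridised to an oligonucleotide array. The authors deposited 1 column per array, with values between 5.34 and 14.27 that were taken to be log2. R 2.7.2 is named in the submitters' processing notes. The summary of probes into probe sets and the scaling of arrays are not stated there or in the labels. Groups come from the sample titles, which call the samples biological replicates. Of 45101 probe sets, 64 controls were set aside, and 34945 name 1 gene symbol in the platform annotation.

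Genes above the lowest 30% by mean level were fitted under R 4.3.3 by limma 3.58.1 (lmFit and eBayes, intensity trend, two-sided, Benjamini-Hochberg over 12735 genes, threshold 0.05). Residual degrees of freedom were 6 and prior ones 0.61, and the script was tested on simulated data. Signal over background was not available to judge single values, so precision rests on 4 arrays per diet. The members and lists were chosen with earlier results of these data known. Values of every array are given for *Lor*, *Flg* and *Ivl*, for the 8 members of smallest p, and for the first by p of each family. Upstream identity is the share of identical columns in a global alignment. Alternatives covered the filter, scaling, variances, weights, a replicate block, averaged probe sets, the threshold and left-out arrays.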

Additional observations from a re-analysis of the deposited data

Results flagged for a closer look

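Of 78 groups of 4 arrays (39 genes in each diet), 5 (6.41%) held an array whose gap to the nearest other was above the 95% critical share of the group's range, and chance alone marks about 1 in 20. *Lce3f* stood at -0.82 SD in collagen replicate 3, against 0.81 to 1.08 SD in the other 3 arrays of that diet. *Lce1a2* stood at 1.83 SD in collagen replicate 1, against -0.10 to 0.12 SD in the other 3 arrays of that diet. *Lce1b* stood at -1.97 SD in control replicate 3, against 0.00 to 0.41 SD in the other 3 arrays of that diet. *Lce3c* stood at 1.37 SD in control replicate 1, against -0.95 to -0.66 SD in the other 3 arrays of that diet. *Tgm1* stood at -1.51 SD in control replicate 3, against 0.34 to 0.50 SD in the other 3 arrays of that diet. Of these 5, 2 are low values in control replicate 3, the array lowest in 24 of the 39 envelope genes.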

How the results depend on the processing

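Under all 20 alternative fits 0 envelope genes had an adjusted p below 0.05 in limma. Over all genes 1 passed with the lowest 50% by level left out, 1 at an adjusted p below 0.10, and 0 to 1 with 1 array left out (1 without control replicate 1), against 0 otherwise. The count of envelope genes higher on the collagen diet was 21 to 34 of 39 with 1 array left out and 20 without control replicate 4 and collagen replicate 1 together, and the median difference was 0.02 to 0.76 SD with 1 array left out. For LCE genes these were 11 to 15 of 15 and 0.30 to 1.04 SD. Over all genes tested, same-numbered arrays of the diets did not all deviate together (r of 0.00, -0.02, 0.18 and -0.07). In the mean over the 39 envelope genes, same-numbered arrays did run alike. Control replicates 1 to 4 stood at 0.81, 0.11, -1.24 and -0.36 SD. Collagen replicates 1 to 4 stood at 0.76, 0.48, -0.64 and 0.08 SD. No label says that equal numbers share an animal, cage or day, so the numbers were not taken to pair them. Whether arrays of equal number are paired was not tested. Each replicate number holds 1 array per diet, so the replicate block cannot change a difference on the deposited scale or its direction. It therefore again gave 31 of 39 envelope and 15 of 15 LCE genes higher, which is no separate support. With the SD left after the block the medians were 0.62 and 1.20 SD, and 0 envelope genes passed. Averaging all probe sets of a gene gave 32 of 40 higher. Quantile normalization made 12 of the 39 genes and 449 of all 12735 equal in all 8 arrays (within 1e-09 on the log2 scale). These were left out there, a choice made after seeing the data, and 18 of the other 27 were higher. The 27 include *Lce1a1*, still equal in 7 of 8 arrays. The direction was kept in 8 genes, 7 of them LCE, that had a value under all 20 fits. Fits that changed only the filter, the variances, the replicate block or the threshold could not turn a direction. Differences of opposite sign, in SD, were as follows. After quantile normalization they were *Cnfn* -0.32, *Lce3b* -0.28, *Sprr2k* -0.56, *Tgm5* 0.12 and *Tgm1* -0.34. After median centring they were *Krtdap* -0.14, *Dmkn* -0.14, *Sbsn* -0.14, *Lgals7* -0.15, *Lce3a* -0.07, *Lce1g* -0.02, *Sprr2k* -0.10 and *Tgm3* -0.13. With array weights it was *Them5* 0.07. Without control replicate 4 and collagen replicate 1 together they were *Sbsn* -0.57, *Lce1i* -0.04, *Lce1f* -0.11, *Lce1g* -0.38, *Lce1h* -0.21, *Ivl* -0.14, *Rptn* -0.03, *Hrnr* -0.15, *Sprr2h* -0.04, *Sprr2k* -0.15 and *Tgm1* -0.26. Without control replicate 3 and collagen replicate 3 together, an alternative chosen after seeing the data, they were *Calml3* 0.31, *Lce1f* -0.14, *Lce1h* -0.34 and *Tgm1* -0.17. With 1 array left out, 19 genes turned in at least 1 case, over ranges of *Cnfn* -0.26 to 0.78, *Sbsn* -0.25 to 0.66, *Calml3* -0.51 to 0.53, *Lgals7* -0.12 to 0.78, *Them5* -1.0 to 0.23, *Lce1i* -0.16 to 0.76, *Lce1f* -0.27 to 1.04, *Lce1g* -0.16 to 0.83, *Lce1h* -0.48 to 0.63, *Ivl* -0.24 to 0.77, *Lor* -1.08 to 0.18, *Hrnr* -0.46 to 0.59, *Sprr1a* -0.85 to 0.24, *Sprr2h* -0.02 to 1.45, *Sprr2k* -0.13 to 0.70, *Sprr2d* -0.17 to 0.84, *Sprr1b* -0.23 to 1.00, *Tgm5* -0.68 to 0.36 and *Tgm1* -0.49 to 0.34. In the other 20 genes the ranges were *Ly6g6c* -1.13 to -0.28, *Serpinb12* -1.18 to -0.17, *Krtdap* 0.24 to 1.25, *Dmkn* 0.28 to 1.10, *Calm4* 0.12 to 2.04, *Crct1* -1.75 to -0.10, *Lce3b* 1.37 to 2.59, *Lce1m* 0.68 to 1.60, *Lce3f* 0.66 to 1.99, *Lce1a2* 0.59 to 1.5, *Lce1a1* 0.55 to 1.34, *Lce3a* 0.35 to 1.89, *Lce1b* 0.26 to 1.12, *Lce1c* 0.21 to 1.03, *Lce1l* 0.15 to 1.04, *Lce1d* 0.02 to 1.11, *Lce3c* 0.27 to 1.55, *Flg* 0.32 to 1.60, *Rptn* 0.00 to 1.48 and *Tgm3* 0.05 to 1.28. The cause of these turns and moves was not tested. With 4 arrays per diet the 95% interval of each difference reaches 1.73 SD to either side, and no signal over background was available.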
